A study of Rattus norvegicus with 74 samples.

Results

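The miR-200 family was examined in kidneys of untreated male and female rats of the inbred F344 strain across the life span. It was taken as every miRNA of the array named miR-200a, miR-200b, miR-200c, miR-141 or miR-429, of either arm, that was detected on any array. The array carries 9 such miRNAs, and 7 of them were detected, out of 311 detected miRNAs among 677 on the array. Those on all 74 arrays were rno-miR-141-3p, rno-miR-200a-3p, rno-miR-200b-3p, rno-miR-200b-5p, rno-miR-200c-3p and rno-miR-429 (the prefix for rat is left out from here on). miR-200a-5p was detected on 31 of 74 arrays, whereas miR-141-5p and miR-200c-5p were detected on 0 of 74. Each array holds total RNA of the whole kidney of 1 animal. The 16 groups are females and males of 4 younger ages (2, 5, 6 and 8 weeks) and 4 older ages (15, 21, 78 and 104 weeks), with 4 or 5 animals in each (36 females and 38 males in all). No group was treated, the animals were housed 2 per cage, and females were not synchronized for estrous cycle, so that cycle stage is part of the spread among adult females. Sex is given by the title and characteristics of each sample, while the housing notes shared by all samples speak of females only, a conflict in the labels that bears on every sex comparison.

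The miR-200 family is a set of small RNAs made by epithelial cells. Its members bind messenger RNAs of the transcription factors ZEB1 and ZEB2, which repress E-cadherin and other epithelial genes, and ZEB1 and ZEB2 in turn repress the miR-200 genes. The family is therefore known for holding cells in an epithelial state, and in the kidney it is known from the epithelium of nephron tubules and collecting ducts. A miRNA finds its targets mainly through its seed, bases 2 to 8 from the 5′ end, and the family splits into members with either of 2 seeds, which differ by 1 base. The genes lie in 2 clusters, each transcribed as 1 precursor. Because whole kidney was measured, fewer cells of a type and less RNA per cell cannot be told apart.

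Sequences were taken from RefSeq (GRCr8 build), which held a mature entry for 6 of the 9 array names. The mature sequences of the detected arms with an entry are shown because the seed, in capitals, assigns each arm to its seed group.
miR-200c-3p: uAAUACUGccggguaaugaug
miR-141-3p: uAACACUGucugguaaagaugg
miR-200b-5p: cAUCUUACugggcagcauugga
miR-200a-5p: cAUCUUACcggacagugcugg
Counted from the 5′ end, the seeds of miR-200c-3p and miR-141-3p differ at 1 position (U4C). The arms miR-200a-5p and miR-200b-5p share a seed of their own. miR-200a-3p, miR-200b-3p and miR-429 are named only, and the hairpins of their genes are shown instead, with the 7 bases that match the seed of miR-200c-3p (AAUACUG) or miR-141-3p (AACACUG) in capitals.
Mir200b: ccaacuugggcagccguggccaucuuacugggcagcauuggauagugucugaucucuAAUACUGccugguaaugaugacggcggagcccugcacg
Mir200a: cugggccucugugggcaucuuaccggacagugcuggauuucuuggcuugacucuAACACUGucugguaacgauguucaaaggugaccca
Mir429: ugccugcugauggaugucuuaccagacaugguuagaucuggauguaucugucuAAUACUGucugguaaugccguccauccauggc
The first cluster lies on the minus strand of chromosome 5, with Mir429 at chr5:171929682-171929766, Mir200a at chr5:171930717-171930805 and Mir200b at chr5:171931495-171931589, all within 1908 bases. The second cluster lies on the minus strand of chromosome 4, with Mir141 at chr4:159209525-159209618 and Mir200c at chr4:159209965-159210033, within 509 bases. Each cluster thus holds members of both seed groups. Of the 419 rat hairpins in RefSeq, AAUACUG was present in 4 (0.955%) and AACACUG in 4 (0.955%), while their reverse complements CAGUAUU and CAGUGUU were present in 3 (0.716%) and 13 (3.1%).

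Levels are given as normalized signal, the total gene signal of a miRNA divided by the 75th percentile of that signal over the 311 detected miRNAs of the same array, so that 1 is the level of that percentile. Differences are on the log2 scale. The percentile lay between 81.2 and 283 signal units, and 190 to 264 miRNAs were detected per array. The defining tubule miRNAs miR-192-5p, miR-194-5p, miR-204-5p and miR-30a-5p were detected on all 74 arrays. Of the striated muscle markers, miR-1-3p and miR-133a-3p were detected on 0 of 74 arrays. The third, miR-206-3p, was detected on 17 of 74, among them all 5 of the 21-week males at 0.0314 to 0.0410. It was called higher in 21-week males than in 21-week females (1.09), and its part in the differences of the family was not tested. The liver marker miR-122-5p was above the 75th percentile on 3 male arrays. Its normalized signal was 23.6 in 2-week male replicate 1, 5.82 in 6-week male replicate 1 and 3.91 in 5-week male replicate 2, against at most 0.672 on the other arrays. Some, but not all, of the family results that include these arrays are also given without them. The arrays of rats aged 2 to 8 weeks and those of rats aged 15 to 104 weeks were run on different slides, apart from 1 array of a 15-week female, so a difference between 8 and 21 weeks and a difference between slides cannot be told apart.

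**Figure D1:**
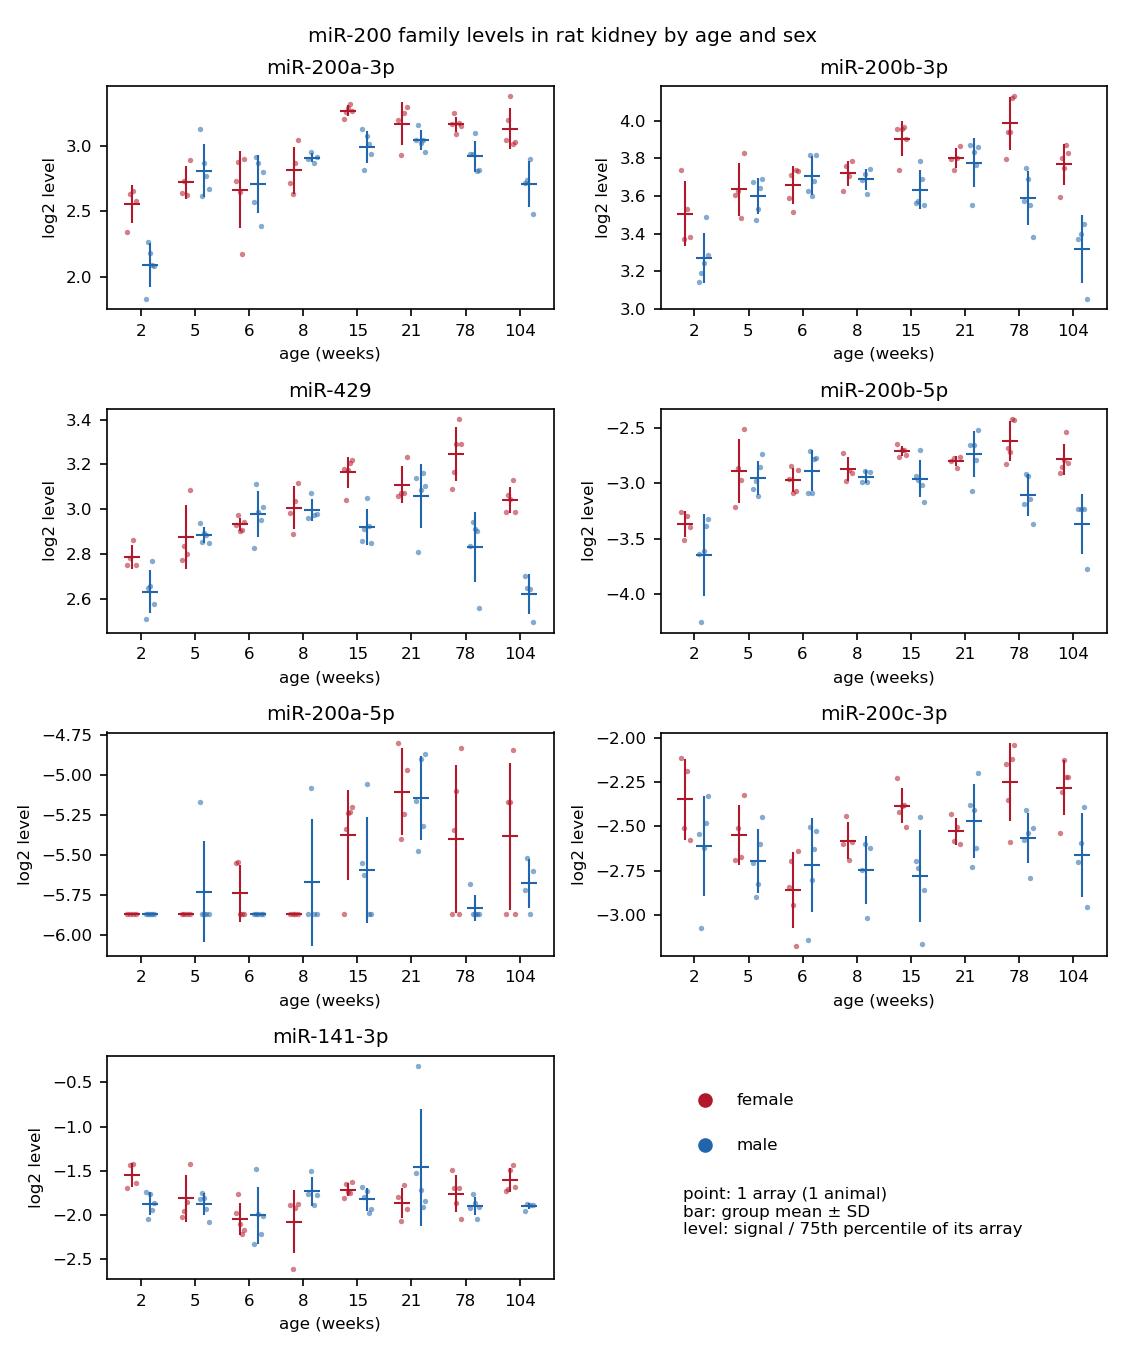
Levels of the 7 detected family members, as log2 normalized signal (y axis), against age in weeks (x axis, not to scale) for females (red) and males (blue). Points are arrays of 1 animal each and bars are group means ± SD. The 3p arms of the chromosome 5 cluster are lowest at 2 weeks in females, and in males at 2 weeks or at 104 weeks, while miR-200c-3p and miR-141-3p follow neither course. Most points of miR-200a-5p lie at the floor given to undetected signals.

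The first question was whether members changed with age within each sex. In females, miR-200a-3p, miR-200a-5p, miR-200b-5p and miR-200c-3p met the criteria for an age effect (limma F test with an adjusted p below 0.05 and a pair of ages that differed by at least 1.5-fold), 4 of 7 members against 36.7% of all miRNAs tested. In males, miR-200a-3p, miR-200a-5p and miR-200b-5p met them, 3 of 7 against 45.3% of all miRNAs. Both shares are near the background of the array. Without the fold criterion, all 7 members passed the adjusted p in females (49.8% of all miRNAs) and 5 of 7 in males (58.8%), where miR-200c-3p and miR-141-3p did not. Within the ages that shared slides the counts were lower: from 2 to 8 weeks 0 of 7 members were called in females and 2 of 7 in males, against 21.2% and 30.2% of all miRNAs, and from 15 to 104 weeks 0 of 7 in females and 2 of 7 in males, against 7.4% and 16.7%. The age effects called in females thus span ages on different slides, and the 2 cannot be told apart. The range of the group means was 1.93-fold for miR-200a-3p and 1.88-fold for miR-200b-5p in males, and 1.64-fold and 1.68-fold in females. It was smaller for miR-200b-3p (1.39-fold in females, 1.42-fold in males) and miR-429 (1.38-fold and 1.35-fold). In the order of the 8 ages by level, at most 2 of the 7 pairs of neighbours in any member and sex were further apart than the larger SD of that pair, so the order inside the adult ages is not resolved.

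The 3p arms of the chromosome 5 cluster rose in males from 2 weeks, when the pups still suckle, to 8 weeks, when the animals are young adults. For miR-200a-3p, which carries the AACACUG seed, the normalized signal of the 5 males aged 2 weeks was 3.57, 4.24, 4.27, 4.55 and 4.83, and that of the 4 males aged 8 weeks was 7.32, 7.46, 7.53 and 7.75. All 8-week males were above all 2-week males, by 0.82 ± 0.11 (SE) on the log2 scale (limma adjusted p = 9.97e-10). For miR-200b-3p, with the AAUACUG seed, values were 8.85, 9.15, 9.48, 9.78 and 11.2 at 2 weeks and 12.2, 12.9, 13.1 and 13.4 at 8 weeks, again without overlap, a rise of 0.42 ± 0.08 (limma adjusted p = 1.01e-05). For miR-429, its neighbour with the same seed, the 2-week males had 5.69, 5.95, 6.26, 6.30 and 6.81 and the 8-week males 7.79, 7.87, 7.88 and 8.40, a rise of 0.37 ± 0.06 (limma adjusted p = 2.39e-06). The passenger arm miR-200b-5p went from 0.0524, 0.0803, 0.0816, 0.0957 and 0.1002 to 0.126, 0.126, 0.134 and 0.135, a rise of 0.70 ± 0.13 (limma adjusted p = 2.77e-06). Only the changes of miR-200a-3p and miR-200b-5p exceeded 1.5-fold, so that 2 of 7 members were called higher, against 15.1% of all miRNAs called higher in this step. Without 2-week male replicate 2, which had the lowest value, the rise of miR-200b-5p was 0.55 (limma adjusted p = 6.57e-05), under 1.5-fold. On the adjusted p alone 4 of 7 were higher, against 22.2%.

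In the main scaling, neither member of the chromosome 4 cluster passed the adjusted p for a rise in this step. In males, miR-200c-3p had normalized signals of 0.119, 0.162, 0.172, 0.179 and 0.199 at 2 weeks and 0.124, 0.149, 0.162 and 0.165 at 8 weeks, and the groups overlapped (difference −0.14 ± 0.13, limma adjusted p = 0.483). miR-141-3p had 0.243, 0.260, 0.274, 0.295 and 0.300 at 2 weeks and 0.269, 0.292, 0.294 and 0.352 at 8 weeks, which also overlapped (0.14 ± 0.17, limma adjusted p = 0.604). In females, miR-141-3p was 0.310, 0.321, 0.369 and 0.372 at 2 weeks and 0.164, 0.263, 0.271 and 0.272 at 8 weeks. All 8-week females were below all 2-week females, by 0.53 ± 0.18 on the log2 scale (limma adjusted p = 0.0157), a change under 1.5-fold. The lowest 8-week female, replicate 2, stood apart from the other 3, and without it the difference was −0.35 with a limma adjusted p of 0.162.

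Females showed smaller rises of the chromosome 5 cluster over the same step. miR-200b-5p rose by 0.49 ± 0.13 (limma adjusted p = 0.00186), with 0.0876, 0.0949, 0.102 and 0.104 at 2 weeks against 0.127, 0.133, 0.136 and 0.151 at 8 weeks. miR-429 rose by 0.22 ± 0.07 (limma adjusted p = 0.00805), from 6.72, 6.73, 6.87 and 7.27 to 7.40, 7.91, 8.19 and 8.67, without overlap, and miR-200b-3p by 0.21 ± 0.08 (limma adjusted p = 0.0436), with overlap of the groups. miR-200a-3p had 5.07, 5.99, 6.21 and 6.30 at 2 weeks and 6.19, 6.59, 7.29 and 8.22 at 8 weeks, and the difference of 0.26 ± 0.11 did not pass (limma adjusted p = 0.0661). No member reached 1.5-fold, while 21.2% of all miRNAs were called in this step. On the adjusted p alone 3 of 7 members were higher, against 15.1% of all miRNAs, and 1 of 7 was lower, against 16.7%. The rise of miR-200b-3p no longer passed the adjusted p on leaving out any of 6 single arrays.

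**Figure D2:**
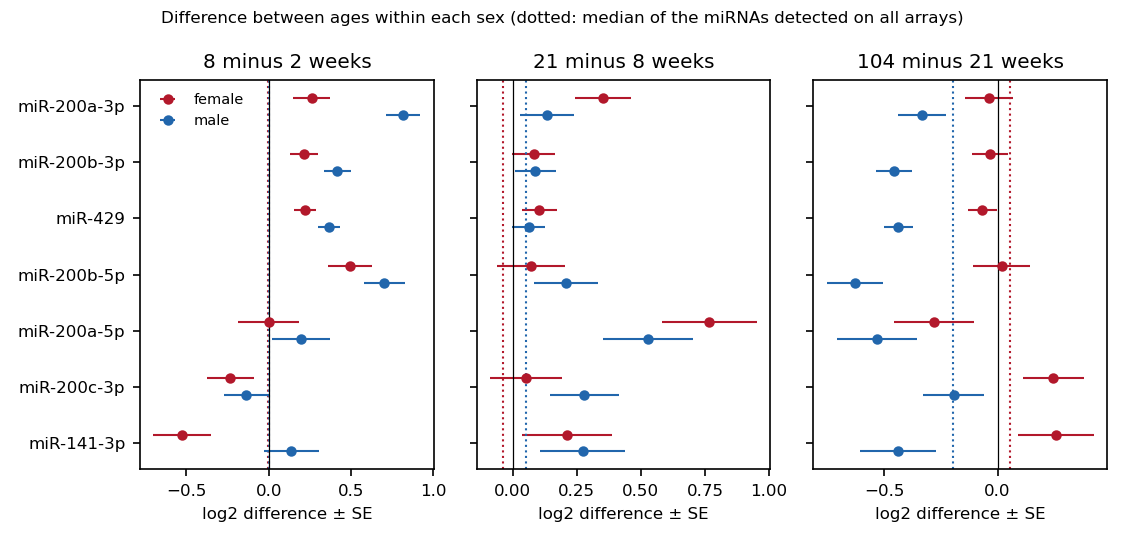
Log2 difference (x axis) ± SE between 8 and 2, 21 and 8, and 104 and 21 weeks for each member (y axis) in females (red) and males (blue). Dotted lines give the median difference of the 166 miRNAs found on every array. miR-200a-3p at 0.82 in males is the largest rise from 2 to 8 weeks among the members, and in males all 7 members lie below 0 at 104 against 21 weeks, where the median is −0.20.

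Between 8 and 21 weeks the member that changed most was miR-200a-5p, the passenger arm of miR-200a. It was detected in 0 of 4 females at 8 weeks and 4 of 4 at 21 weeks, and was called higher, with a fitted difference of 0.77 ± 0.19 (limma adjusted p = 0.00309) in which all 8-week values stand at the floor given to undetected signals. The probe for it that gave a signal on all arrays differed by 0.59 on the log2 scale. The call is 1 of 7 members, against 3.54% of all miRNAs called higher in this step in females. In males it was detected on 1 of 4 arrays at 8 weeks and 5 of 5 at 21 weeks, a fitted difference of 0.53 ± 0.18 (limma adjusted p = 0.0447) that was under 1.5-fold, where 4.18% of miRNAs were called. Leaving out any of 6 single arrays took this difference past an adjusted p of 0.05 (up to 0.185 by limma), as did leaving out the 3 male arrays with high miR-122-5p (limma adjusted p = 0.0502). Over all arrays it was detected on 3 of 17 females and 2 of 19 males aged 2 to 8 weeks, and on 14 of 19 females and 12 of 19 males aged 15 to 104 weeks. The slides changed between these ages, so the part of the slides cannot be told apart. miR-200a-3p, the main arm of the same hairpin, was higher at 21 than at 8 weeks in females by 0.35 ± 0.11 (limma adjusted p = 0.0339), with 7.61, 9.18, 9.49 and 9.78 at 21 weeks. This difference was under 1.5-fold and no longer passed the adjusted p on leaving out any of 5 single arrays.

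From 21 to 104 weeks, no member passed the test in females (0 of 7 by limma, with 0 of 7 at an unadjusted p below 0.05 and 2.89% of all miRNAs called). In males, 6 of 7 members fell on the adjusted p, against 25.1% of all miRNAs lower on that criterion, and 1 of 7, miR-200b-5p, fell by over 1.5-fold, against 14.8% of all miRNAs called in either direction. miR-200b-5p fell from 0.119, 0.145, 0.159, 0.159 and 0.175 at 21 weeks to 0.0733, 0.106, 0.107 and 0.107 at 104 weeks, without overlap (−0.63 ± 0.13, limma adjusted p = 4.97e-05). miR-200b-3p went from 11.8, 13.6, 14.3, 14.5 and 14.6 to 8.30, 10.3, 10.6 and 10.9 (−0.46 ± 0.08, limma adjusted p = 4.16e-06), and miR-429 from 6.997, 8.48, 8.59, 8.81 and 8.94 to 5.63, 6.24, 6.27 and 6.51 (−0.44 ± 0.06, limma adjusted p = 1.47e-07). In both, every 104-week male was below every 21-week male. miR-200a-3p fell by 0.33 ± 0.11 (limma adjusted p = 0.0100), from 7.74, 8.10, 8.22, 8.26 and 8.92 to 5.59, 6.55, 6.66 and 7.47. Without 104-week male replicate 6, which had the lowest value of miR-200b-5p, miR-200a-3p no longer passed (−0.26, limma adjusted p = 0.0825) and miR-200b-5p fell by less than 1.5-fold (−0.49, limma adjusted p = 0.00254), as it also did without 21-week male replicate 5 (−0.58, limma adjusted p = 4.33e-04).

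The fall in old males was measured against a background that moved as well. The median difference over the 166 miRNAs found on every array was −0.20 between 104 and 21 weeks in males, and that of the 7 members −0.44. When the 75th percentile was taken over those 166 miRNAs only, the median of the 166 became 0.12, the median of the members became −0.12, and 1 of 7 members passed the adjusted p. Relative to the median of the 166 miRNAs, the fall stayed below 0 under all 5 scalings compared for 5 of the 6 members found on every array, and lay between −0.26 and −0.17 for miR-200b-3p, −0.24 and −0.17 for miR-429, −0.46 and −0.11 for miR-200b-5p, and −0.14 and −0.08 for miR-200a-3p. For miR-200c-3p it lay between −0.02 and 0.00. The rise of the chromosome 5 cluster from 2 to 8 weeks in males stayed above 0 under the 5 scalings: relative to the same median it was between 0.68 and 0.82 for miR-200a-3p, between 0.25 and 0.42 for miR-200b-3p, between 0.05 and 0.37 for miR-429 and between 0.11 and 0.89 for miR-200b-5p. The difference of miR-141-3p in this step also stayed above 0, between 0.03 and 0.42. That of miR-200c-3p lay between −0.14 and 0.16, so the contrast between the clusters depended on the scaling.

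miR-141-3p also passed the adjusted p in old males (−0.44 ± 0.17, limma adjusted p = 0.0360), under 1.5-fold, but this result rested on 1 animal. The 21-week males had 0.266, 0.279, 0.304, 0.347 and 0.805, and the 104-week males 0.258, 0.269, 0.270 and 0.272. Replicate 2 at 21 weeks, with the value of 0.805, stood far above all the other 73 arrays, and both probes for miR-141-3p were high on it (0.127 against 0.037 to 0.053 on the other 21-week males, and 0.678 against 0.229 to 0.294). On the same array miR-200a-3p, which shares the seed of miR-141-3p, was 8.92, against 7.74 to 8.26 on the other 21-week males, and miR-200c-3p, its neighbour in the genome, was the lowest of the 5 at 0.151. Without this array the difference of miR-141-3p was −0.15 with a limma adjusted p of 0.486. It also went past an adjusted p of 0.05 without any one of the 4 arrays of 104-week males.

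The next question was whether miRNAs with the same seed but from different clusters moved apart, which was tested on the ratio of their signals on each array. Such a ratio does not depend on how the array is scaled by a single factor. The log2 ratio of miR-200a-3p over miR-141-3p rose from 3.96 ± 0.26 (SD, n = 5) at 2 weeks to 4.64 ± 0.13 (SD, n = 4) at 8 weeks in males, and from 4.10 ± 0.08 (SD, n = 4) to 4.89 ± 0.27 (SD, n = 4) in females. The log2 ratio of miR-200b-3p over miR-200c-3p rose from 5.88 ± 0.26 to 6.44 ± 0.14 in males and from 5.85 ± 0.10 to 6.30 ± 0.10 in females, over the same animals. In all 4 cases the ages did not overlap. Two-sided exact permutation tests over the animals gave p = 0.0159 in males and p = 0.0286 in females for each ratio, the smallest p these group sizes allow. Over the 12 tests made (2 ratios, 3 steps, both sexes), the adjusted exact permutation p was 0.0476 in males and 0.0544 in females.

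Between 21 and 104 weeks both ratios fell in females. From 21 to 104 weeks in females, the log2 ratio of miR-200a-3p over miR-141-3p fell by 0.29 (from 5.03 ± 0.13 to 4.73 ± 0.18 SD, adjusted exact permutation p = 0.0476) and that of miR-200b-3p over miR-200c-3p fell by 0.28 (from 6.33 ± 0.10 to 6.05 ± 0.10 SD, adjusted exact permutation p = 0.0476), without overlap of the ages. In males the second ratio was lower by 0.26 at 104 weeks (exact permutation p = 0.0317, adjusted 0.0544), with overlap, and the first was higher by 0.11 (exact permutation p = 0.984), with the 21-week male of high miR-141-3p included. Between 8 and 21 weeks none of the 4 tests passed after adjustment. In all, 4 of 12 tests passed. As each of the 4 is at the smallest p its groups allow, leaving out any 1 array of the groups behind them left 0 of 12 tests past the threshold. Under quantile normalization, which changes ratios within an array, 0 of 12 passed, although the 4 rises from 2 to 8 weeks remained above 0 (0.09 to 0.38).

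**Figure D3:**
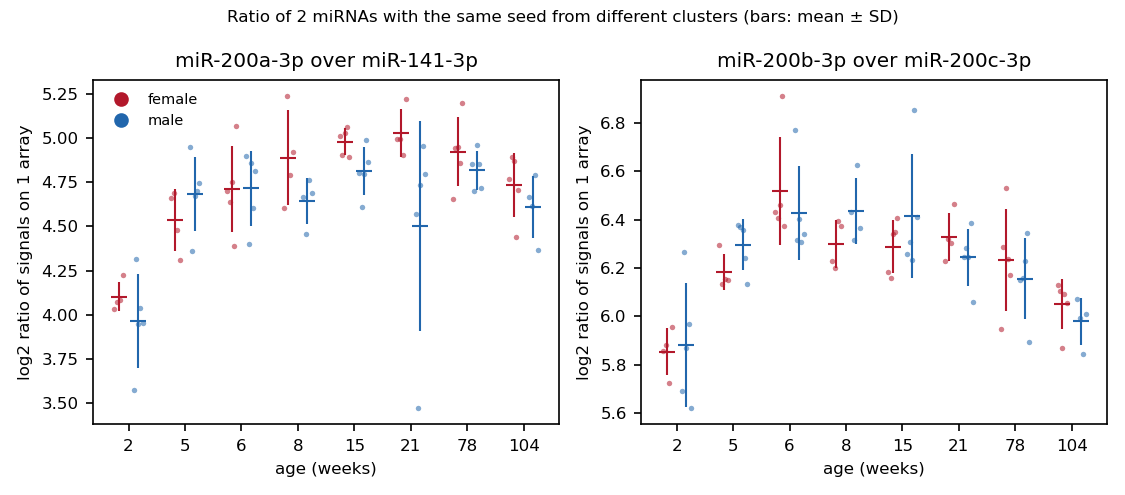
Log2 ratio of the signals (y axis) of miR-200a-3p over miR-141-3p (left) and miR-200b-3p over miR-200c-3p (right) on each array, by age in weeks (x axis, not to scale), in females (red) and males (blue). Points are arrays and bars are group means ± SD. Both ratios are lowest at 2 weeks, 3.96 and 5.88 in males, and the low point at 21 weeks in the left panel is the male with high miR-141-3p.

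Ratios were also taken within the chromosome 5 cluster. The log2 ratio of miR-429 over miR-200b-3p changed by −0.05 to 0.02 over the 6 steps. That of miR-200a-3p over miR-200b-3p rose by 0.40 from 2 to 8 weeks in males and by 0.05 in females, and by 0.05 and 0.27 from 8 to 21 weeks. The log2 ratio of the 2 arms of miR-200b, miR-200b-5p over miR-200b-3p, rose by 0.28 from 2 to 8 weeks in both sexes. Averaged over the 3p members of each cluster, the chromosome 5 cluster rose against the chromosome 4 cluster by 0.53 in males and 0.61 in females from 2 to 8 weeks. Averaged by seed instead, the members with AAUACUG changed against those with AACACUG by −0.26 in males and 0.20 in females, opposite directions in the sexes. These averages were not tested.

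Sex was compared at each of the 8 ages. No member differed between males and females by both criteria at any age (0 of 56 comparisons by limma), while of all miRNAs 3.86% did at 2 weeks, 0% at 5, 0.322% at 6, 1.29% at 8, 3.54% at 15, 4.82% at 21, 6.75% at 78 and 6.11% at 104 weeks. The largest fold was that of miR-200b-5p at 104 weeks, 1.496, just under the criterion. It was called when some single 104-week arrays were left out (−0.61 without female replicate 1, limma adjusted p = 2.64e-04). On the adjusted p alone, 13 of the 56 comparisons passed, 2 at 2 weeks, 3 at 15 weeks, 3 at 78 weeks and 5 at 104 weeks, and all were lower in males. This count was 11 with the percentile over the miRNAs found on every array, 5 with quantile normalization, 1 with the percentile over all miRNAs and 0 with normexp background correction, and at 15 weeks it was 0 under each of these 4. The shares of all miRNAs under these 4 scalings are not given here. In the main scaling, the shares of all miRNAs lower in males on the adjusted p were 8.04% at 2 weeks, 5.79% at 15 weeks, 15.4% at 78 weeks and 13.5% at 104 weeks. At 5, 6, 8 and 21 weeks 0 of 7 members passed, against 0%, 0.322%, 1.93% and 10.3% of all miRNAs, and 1 of these 28 comparisons had an unadjusted p below 0.05.

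At 104 weeks the normalized signal of miR-200b-3p was 12.1, 13.4, 13.9, 14.2 and 14.6 in females and 8.30, 10.3, 10.6 and 10.9 in males. Every male was below every female (−0.45 ± 0.08, limma adjusted p = 1.28e-05). miR-429 was 7.93, 7.94, 8.24, 8.36 and 8.74 in females and 5.63, 6.24, 6.27 and 6.51 in males, also without overlap (−0.42 ± 0.06, limma adjusted p = 1.13e-06). miR-200a-3p was 8.06, 8.14, 8.23, 9.14 and 10.4 in females against 5.59, 6.55, 6.66 and 7.47 in males (−0.42 ± 0.11, limma adjusted p = 0.00156). miR-200b-5p showed the widest gap, 0.133, 0.138, 0.142, 0.144 and 0.172 against 0.0733, 0.106, 0.107 and 0.107 (−0.58 ± 0.13, limma adjusted p = 2.61e-04), and miR-200c-3p, with overlap, was lower by 0.38 ± 0.13 (limma adjusted p = 0.0350). Without 104-week male replicate 6, miR-200c-3p no longer passed (−0.28, limma adjusted p = 0.219). The other 4 still did.

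At 78 weeks miR-200b-3p, miR-200b-5p and miR-429 were lower in males without overlap. For miR-429 the females had 8.51, 8.97, 9.78, 9.79 and 10.6 and the males 5.88, 7.14, 7.47, 7.51 and 7.69 (−0.42 ± 0.06, limma adjusted p = 5.03e-07). miR-200b-3p differed by −0.40 ± 0.07 (limma adjusted p = 5.19e-05) and miR-200b-5p by −0.49 ± 0.12 (limma adjusted p = 0.00139). At 2 weeks it was miR-200a-3p that differed most, with every male (3.57 to 4.83) below every female (5.07 to 6.30), by 0.46 ± 0.11 on the log2 scale (limma adjusted p = 0.00112). Leaving out the 2-week male with the high miR-122-5p gave a sex difference of −0.40 for miR-200a-3p (limma adjusted p = 0.00788), and a rise from 2 to 8 weeks in males of 0.75 (limma adjusted p = 2.54e-08). The other difference at 2 weeks, that of miR-200b-3p (−0.23, limma adjusted p = 0.0420), no longer passed without this array (−0.20, limma adjusted p = 0.124), nor without any of 5 other single arrays of that age.

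**Figure D4:**
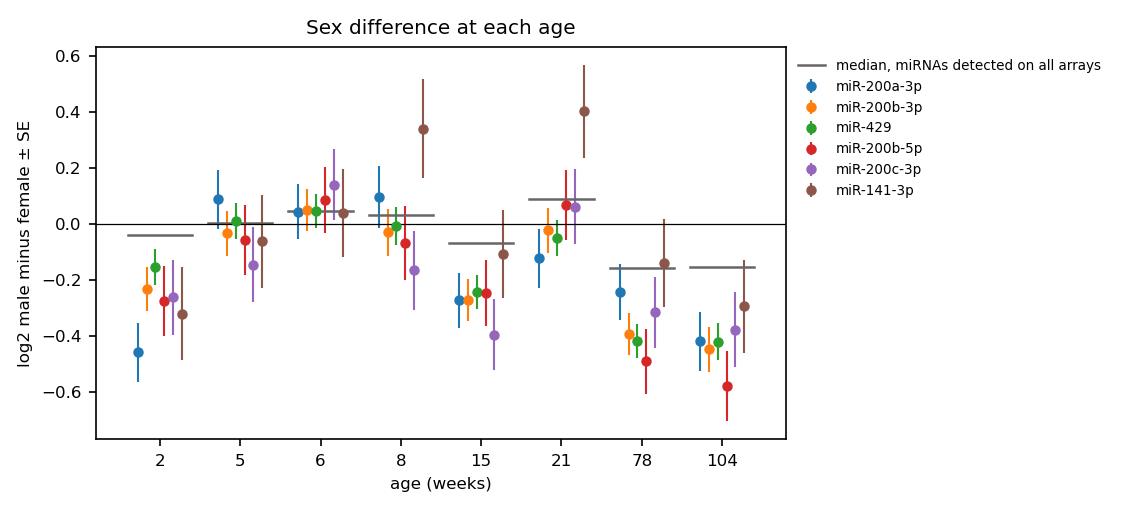
Log2 difference of males minus females ± SE (y axis) at each age in weeks (x axis, not to scale) for the 6 members found on every array; grey bars are the median difference of the 166 miRNAs found on every array. The chromosome 5 members lie below the grey bar at 2, 15, 21, 78 and 104 weeks and near 0 at 5, 6 and 8 weeks. miR-200c-3p also lies below the bar at 2, 15, 21, 78 and 104 weeks, and miR-141-3p at 2, 15 and 104 weeks.

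The age course differed between the sexes (limma F test of the age by sex interaction) for miR-429 (adjusted p = 4.17e-06), miR-200b-3p (adjusted p = 2.83e-04), miR-200a-3p (adjusted p = 0.00272) and miR-200b-5p (adjusted p = 0.00545), 4 of 7 members against 27.7% of all miRNAs. These are the 4 members of the chromosome 5 cluster detected on all arrays. miR-200a-5p, miR-200c-3p and miR-141-3p did not pass, although leaving out single arrays let miR-141-3p pass (limma adjusted p = 0.0378, 0.0316 and 0.0396 without 21-week male replicates 2, 4 and 5, of which replicate 2 is the one with the high value) and miR-200c-3p (limma adjusted p = 0.0288 without 6-week male replicate 1, and 0.0275 without the 3 male arrays with high miR-122-5p). The number of members past the interaction test depended on the scaling. It was 2 with the percentile over the miRNAs found on every array, 1 under quantile normalization and 0 with the percentile over all 677 miRNAs. The shares of all miRNAs under these scalings are not given here. The size of the sex differences also moved with the scaling. At 104 weeks the median of the 166 miRNAs found on every array was −0.16 in the main scaling, and relative to this median the difference of miR-200b-3p was −0.29 there and between −0.29 and −0.18 under the 5 scalings, and that of miR-429 between −0.27 and −0.17. At 15 weeks the difference of miR-429 changed from −0.25 to 0.02 with the percentile over all miRNAs.

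**Figure D5:**
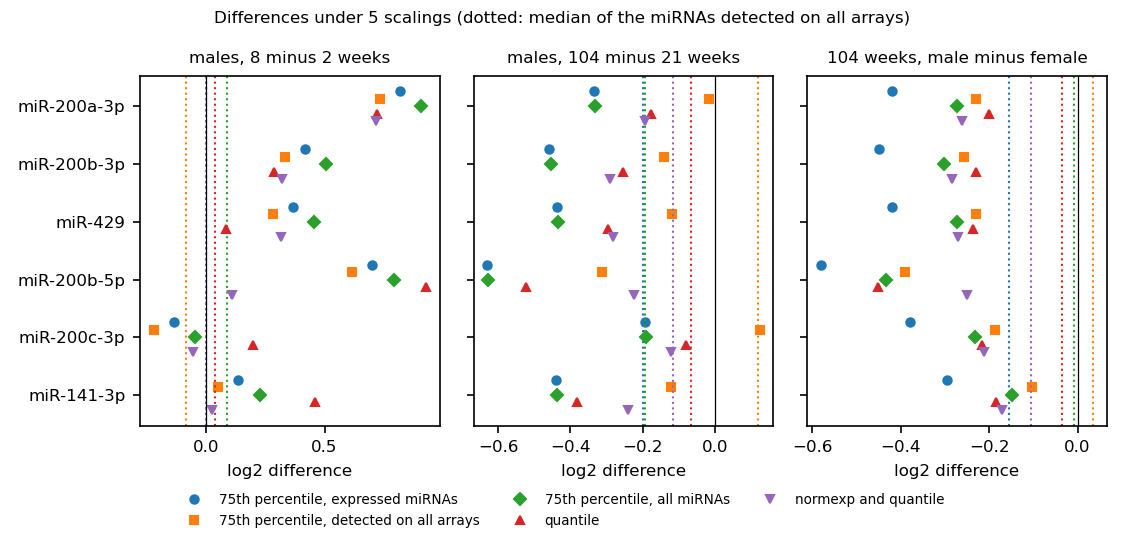
Log2 differences (x axis) of the 6 members found on every array (y axis) under 5 scalings, for males at 8 against 2 weeks, males at 104 against 21 weeks, and males against females at 104 weeks; dotted lines of the same colour are the median of the 166 miRNAs found on every array under that scaling. miR-200a-3p stays between 0.72 and 0.91 in the left panel, and miR-200c-3p lies on both sides of 0 in the middle panel, from −0.19 to 0.12. The setting named normexp and quantile in the legend is normexp with an offset of 50, scaled by the 75th percentile without a quantile step.

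Over the 16 group means, miR-200b-3p and miR-429 had a Pearson r of 0.99, miR-200b-3p and miR-200b-5p of 0.95 and miR-200a-3p and miR-200b-3p of 0.84. Across clusters, r was 0.42 between miR-200b-3p and miR-200c-3p and 0.30 between miR-200a-3p and miR-141-3p, which share seeds, and it was 0.63 between the cluster neighbours miR-200c-3p and miR-141-3p. Among animals of 1 group (deviations from group means over 74 arrays), the order was different. There r was 0.71 between miR-200b-3p and miR-429, but 0.20 between miR-200a-3p and miR-200b-3p and 0.09 between miR-200c-3p and miR-141-3p, the neighbours in 1 cluster. Across clusters it was 0.58 between miR-200b-3p and miR-200c-3p, 0.40 between miR-200a-3p and miR-141-3p and 0.73 between miR-200b-5p and miR-200c-3p. All these values share the scaling of each array. The SD within groups was smallest for miR-429 (0.10 on the log2 scale) and largest, among members found on every array, for miR-141-3p (0.25), where it exceeded the SD between group means (0.17). It also exceeded that SD for miR-200c-3p (0.20 within groups against 0.18 between group means).

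Among the 222 other miRNAs seen on 50% of the arrays or more, the courses most like those of the family over the 16 group means were as follows. For miR-200a-3p they were miR-26b-5p (r = 0.95) and miR-192-5p (r = 0.92), the latter an abundant miRNA of renal tubules. For miR-200b-3p they were miR-30c-2-3p and let-7c-5p (r = 0.91 and 0.90), and for miR-429 the same 2 miRNAs (r = 0.92 and 0.88). The chromosome 4 members had less similar and different ones, miR-10a-3p (r = 0.78) and miR-30a-3p (r = 0.73) for miR-200c-3p, and miR-19a-3p and miR-196c-3p (both r = 0.69) for miR-141-3p.

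Other miRNAs of epithelial cells and of TGF-beta signalling and mesenchymal cells were set beside the family. Of 9 epithelial miRNAs listed, 8 were detected (miR-215 was not). From 2 to 8 weeks 5 of 8 were called higher in females and 6 of 8 in males, against 8.68% and 15.1% of all miRNAs, with a median difference of 1.01 and 1.15 against 0 for all 311 miRNAs. In males miR-192-5p rose by 1.37 ± 0.08 (limma adjusted p = 6.70e-22), a larger difference than that of any family member, and miR-203a-3p, a miRNA of differentiated epithelium, by 1.09 ± 0.10 (limma adjusted p = 6.69e-14). From 21 to 104 weeks 3 of 8 fell in each sex, against 1.93% of all miRNAs called lower in females and 8.68% in males, and none of the 3 in one sex was among those of the other. In males they were miR-192-5p (−0.80 ± 0.08), miR-194-5p (−0.78 ± 0.10) and miR-203a-3p (−1.02 ± 0.10), each with a limma adjusted p of 5.92e-09 or less. In females they were the members of 1 cluster, miR-183-5p (−0.94 ± 0.14), miR-96-5p (−0.81 ± 0.16) and miR-182 (−0.79 ± 0.23), with a limma adjusted p of 0.0245 or less.

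Of the 9 TGF-beta and mesenchymal miRNAs, all detected, 3 were called higher and 3 lower from 2 to 8 weeks in both sexes, where 8.68% of all miRNAs were called higher and 12.5% lower in females, and 15.1% higher and 14.8% lower in males. The risers were miR-29a-3p, miR-29b-3p and miR-29c-3p, which target collagen messages (3.86 ± 0.14 for miR-29a-3p in males, limma adjusted p = 1.19e-32). The fallers included miR-214-3p (−1.23 ± 0.12 in males, limma adjusted p = 3.60e-14) and miR-199a-3p (−0.88 ± 0.08, limma adjusted p = 1.40e-14), miRNAs of mesenchymal cells. From 21 to 104 weeks in males 3 of 9 were called higher, against 6.11% of all miRNAs, among them miR-21-5p, which is known from fibrosis (1.02 ± 0.17, limma adjusted p = 1.44e-06), and miR-214-3p (0.60 ± 0.12, limma adjusted p = 3.25e-05). In females 0 of 9 passed in that step, where 2.89% of all miRNAs were called in either direction.

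Markers of tubule, leukocyte and mesenchymal cells also differed in the same comparisons. In males, the tubule markers moved in the direction of the chromosome 5 cluster from 2 to 8 weeks and from 21 to 104 weeks. The leukocyte markers did so from 2 to 8 weeks only, with 2 of 4 called higher, against 15.1% of all miRNAs. Their summed normalized signal was 1.67 to 1.84 in 2-week males and 2.58 to 3.34 in 8-week males. The summed normalized signal of the 4 tubule miRNAs was 20.3 to 23.3 in 2-week males, 39.6 to 41.6 in 8-week males, 42.2 to 45.5 in 21-week males and 28.5 to 32.6 in 104-week males, and 4 of 4 rose from 2 to 8 weeks and 4 of 4 fell from 21 to 104 weeks on the limma adjusted p, against 22.2% and 25.1% of all miRNAs. In females 3 of 4 rose from 2 to 8 weeks on the adjusted p, against 15.1% of all miRNAs. From 21 to 104 weeks 0 of 4 passed in females, where 2.89% of all miRNAs were called with the fold criterion. Between the sexes, 3 of 4 were lower in males at 104 weeks on the adjusted p, against 13.5% of all miRNAs, and the sum was 39.2 to 49.3 in females. At 2 weeks 2 of 4 were lower in males, against 8.04%, and the sum was 25.5 to 29.4 in females. Of the tubule miRNAs, miR-192-5p and miR-194-5p also belong to the epithelial list. The summed normalized signal of the 4 leukocyte miRNAs was 3.07 to 3.70 in 21-week males and 5.56 to 7.67 in 104-week males, against 3.32 to 3.55 in 104-week females, and 4 of 4 were called higher in males at 104 weeks in both comparisons, against 6.11% of all miRNAs called higher than at 21 weeks and 3.22% called higher than in females. The summed mesenchymal miRNAs were at 26.0 to 28.8 in 2-week males and 17.4 to 19.1 in 8-week males. Of these 4 miRNAs, 2 (miR-199a-3p and miR-214-3p) were called lower from 2 to 8 weeks in males, against 14.8% of all miRNAs. All 4 also belong to the TGF-beta and mesenchymal list. The part of these tubule, leukocyte and mesenchymal markers in the differences of the miR-200 family was not tested.

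Each miRNA was read by 2 probes, or 4 for miR-200b-5p, and the probes of 1 miRNA were compared where they gave a signal on all arrays. For miR-200a-3p the probes differed by 0.79 and 0.89 between 8- and 2-week males, for miR-200b-3p by 0.44 and 0.36, and for miR-429 by 0.40 and 0.35. At 104 weeks the sex difference was −0.44 and −0.48 for the probes of miR-200b-3p and −0.40 and −0.44 for those of miR-429. The probes of miR-141-3p disagreed in sign between 8- and 2-week males, with −0.11 and 0.12.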

How the data were processed

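Total RNA of whole kidney (RNA integrity number above 8, per the labels) was hybridized to 1-colour Agilent rat miRNA arrays. The authors ran Agilent Feature Extraction 10.7.3.1, and the deposited scanner files give, per miRNA, an intensity (total gene signal) already background-corrected and summed over probes. Samples were grouped by age and sex as titled (the growth label names females for all). Signals were divided by each array's 75th percentile over the 311 miRNAs detected on any array, set to a floor of 0.0171 where lower, and taken to log2. limma 3.58.1 in R 4.3.3 was fitted to all 16 groups and all 311 miRNAs, with Benjamini-Hochberg adjustment over the 311, and a call needed an adjusted p below 0.05 and at least 1.5-fold (interaction: adjusted p alone). The fit was tested on simulated data. Ratios were tested by exact permutation over animals. Members, lists, named miRNAs (the 2 most alike per main arm) and tests were chosen with earlier results of these data known. Signal intensity and the number of arrays limit the precision. The deposited table of values normalized by the authors was not used. Replicate numbers did not pair animals: deviations of same-numbered males and females of 1 age correlated at 0.0377 on average (28 pairs) and other-numbered ones at −0.00385 (143 pairs).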

Additional observations from a re-analysis of the deposited data

Results flagged for a closer look

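The age course differed between the sexes by the limma interaction F test for 4 members, miR-429 (adjusted p = 4.17e-06), miR-200b-3p (adjusted p = 2.83e-04), miR-200a-3p (adjusted p = 0.00272) and miR-200b-5p (adjusted p = 0.00545). Of all miRNAs, 27.7% passed the same test. The count of members was lower under several other scalings, as given below.

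Single arrays stood apart from the rest of their group in 9 of 98 group and member combinations, where the gap to the nearest array made up an unusually large share of the group's range. Chance alone marks about 1 in 20 groups. The miR-141-3p value of 21-week male replicate 2 was 0.805 against 0.266 to 0.347 in the other males (gap 0.762 of the range), and that of 8-week female replicate 2 was 0.164 against 0.263 to 0.272 (gap 0.935). For miR-200b-5p, 104-week male replicate 6 was lowest, 0.0733 against 0.106 to 0.107 (gap 0.992). 15-week female replicate 2 was lowest for miR-200b-3p, 13.4 against 15.0 to 15.6 (gap 0.722), and for miR-429, 8.24 against 9.03 to 9.31 (gap 0.751). For miR-429, 4 further arrays were marked, 21-week female replicate 6 at 9.40 against 8.34 to 8.42 (gap 0.924), 8-week male replicate 3 at 8.40 against 7.79 to 7.88 (gap 0.855), 21-week male replicate 2 at 6.997 against 8.48 to 8.94 (gap 0.784) and 78-week male replicate 6 at 5.88 against 7.14 to 7.69 (gap 0.724).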

How the results depend on the processing

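For the age effect in females (4 of 7), the count was 2 with the percentile over all miRNAs, with quantile normalization and with slide as a fixed block, 1 with normexp, 7 without the fold criterion, and 0 within 2 to 8 weeks, within 15 to 104 weeks, and within 15 to 104 weeks without the array on a slide of the younger ages (chosen after seeing the data). For the age effect in males (3 of 7) it was 5 with the percentile over all miRNAs and without the fold criterion, and 1 with normexp; slide as a fixed block could not be fitted for it. For the interaction (4 of 7) it was 2 with the percentile over miRNAs detected on all arrays, 1 with quantile normalization and 0 with the percentile over all miRNAs or normexp. For sex (0 of 56) it was 1 with the floor set before scaling or the percentile over miRNAs detected on all arrays, and 13 without the fold criterion. For the age steps (4 of 42) it was 2 with normexp and 17 without the fold criterion. For the ratio tests (4 of 12) it was 0 with quantile normalization or normexp. Under normexp, run with an offset of 50 on the spot signals, fewer of all miRNAs were called too (64 of 311 for age in males). For the other alternative scalings the shares of all miRNAs are not given here. Leaving out 1 array at a time gave 3 to 5, 3 to 3, 4 to 5, 0 to 1, 3 to 6 and 0 to 7 for these 6 counts in the same order. With the replicate number as a block the counts were 4, 3, 4, 0 and 4, and 2 single results were lost, the sex difference of miR-200b-3p at 2 weeks (limma adjusted p = 0.0956) and the rise of miR-200a-3p from 8 to 21 weeks in females (limma adjusted p = 0.0507). With a separate fit for each age, 9 single results for sex stayed the same and 4 were weaker. With slide as a fixed block 39 single results stayed the same and 5 were weaker. With the t-test and ANOVA of the authors 22 stayed the same and 5 were weaker. Directions turned for miR-200b-3p at 2 weeks (0.24 under normexp, male minus female), miR-200c-3p at 15 weeks (0.0209 under normexp), miR-429 at 15 weeks (0.0206 with the percentile over all miRNAs) and miR-200a-5p from 8 to 21 weeks (−0.39 in females and −0.0306 in males under normexp). The cause was not tested. Scan day as a block and leaving out the 3 male arrays with high miR-122-5p, both chosen after seeing the data, gave 4, 3, 5, 0 and 4. Signal over background limits miR-200a-5p, at the floor on 44 of 74 arrays.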
